A study of Mus musculus with 9 samples.

Results

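Expression of the genes of the S100 calcium-binding proteins S100a1, S100a4, S100a6, S100a10, S100a11, S100a13, S100a16 and S100b, and of annexin A2 (Anxa2), was compared between whole brains of young and old mice. These 9 genes were taken by name from the 49315 gene rows of the count table, with earlier results of these data known. The young group (n = 5) was 3 months old as labelled, which the study's methods give as 3 or 4 months, and the old group (n = 4) was 33 months old. All mice were wild-type C57BL/6J, were males by the study's methods, had no treatment, and gave 1 library each from an individual brain. Old replicate 2 was not analysed here. RNA was selected by polyA, so each value is a count of reads on the exons of a gene, with 14229259 to 21150439 counts per library.

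S100 proteins are small proteins that bind calcium through paired EF-hand motifs and mostly act as dimers. Calcium opens a surface on the dimer that then binds other proteins, so S100 proteins relay calcium signals inside the cell, and several are also released and bind receptors on other cells. S100b is a long-used marker of astrocytes, while S100a8 and S100a9 are abundant in neutrophils. S100a10 is the exception of the family. It has lost calcium binding and forms a stable complex with annexin A2, a protein that binds acidic phospholipids in a calcium-dependent way, links membranes to actin and, on the surface of endothelial cells, holds plasminogen and its activator.

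Of the 9 genes, 8 were tested, and 4 of these (S100a6, S100a11, Anxa2 and S100a1) were higher in old brains at an adjusted p under 0.05 (edgeR quasi-likelihood test, adjusted over 18492 genes), while 0 were lower. Over all 18492 genes tested, 6.20% were called as higher and 4.83% as lower. S100a6 and S100a11 also passed a log2 fold change of 0.58, which 2.28% of all genes did as higher in old brains. Without adjustment, the same 4 genes had a p under 0.05 as higher and 0 as lower, against 4803 of all genes in either direction, and DESeq2 also called 4 higher and 0 lower. The median log2 fold change of the 8 genes was 0.17, beside -8.98e-05 for all genes. S100a10, S100a13, S100a16 and S100b did not pass the test, and S100a4 was too rare to be kept for it. In bulk tissue, fewer cells of a type and less RNA per cell cannot be told apart, and neither can more cells and more RNA per cell.

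**Figure D1:**
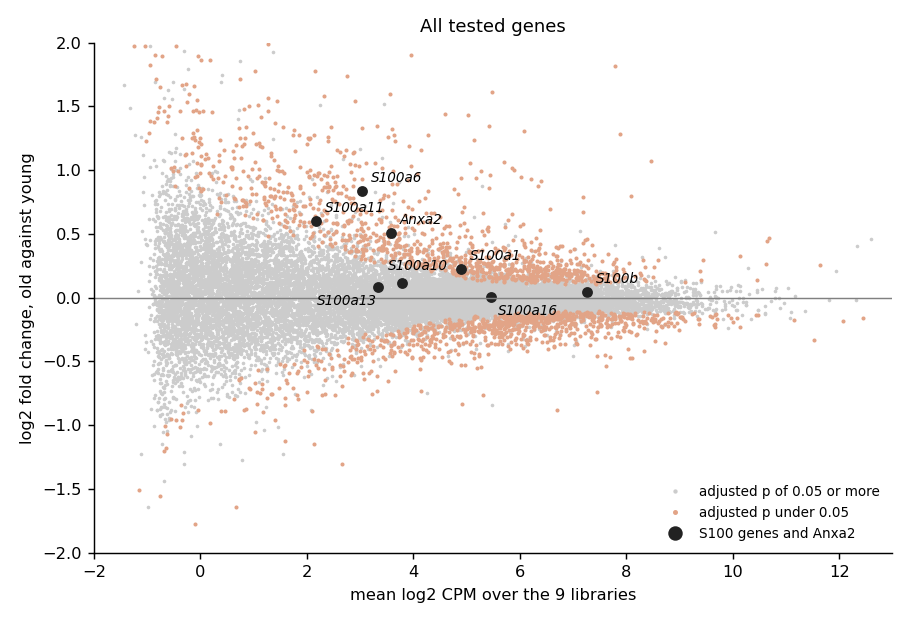
Log2 fold change of old against young brains for each tested gene (vertical axis) by its mean log2 CPM (read counts scaled to library size) over the 9 libraries (horizontal axis), with 33 genes outside the axes. Black points are the 8 tested S100 genes and Anxa2: S100a6, S100a11, Anxa2 and S100a1 lie among the genes that passed the test as higher (light red), and S100b, the one with the highest counts, lies near 0.

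The old library of replicate 4 stood apart in markers of blood and connective tissue, and the young library of replicate 4 in markers of microglia and in Gfap. The summed level of 8 markers of red blood cells and neutrophils was 451 CPM (read counts scaled to library size, with TMM factors that align most genes between libraries) in old replicate 4, 129 to 264 CPM in the other old libraries and 86.8 to 116 CPM in the young ones, and all 6 markers that were tested were higher in old brains. In old replicate 4 the neutrophil granule genes Ngp, Ltf and Camp reached 23.0, 12.9 and 7.10 CPM, against at most 1.86 CPM for any of them in another library. The fibroblast collagen genes Col1a1 and Col1a2 reached 37.7 and 51.2 CPM there, against 18.7 and 30.6 CPM at most elsewhere. The 8 leptomeningeal and fibroblast markers summed to 175 to 205 CPM in young and 158 to 263 CPM in old libraries, and 0 of them passed the test (edgeR, 2 at an unadjusted p under 0.05, DESeq2 0). The 8 microglia markers summed to 370 CPM in young replicate 4 and 230 to 246 CPM in the other young libraries, against 364 to 385 CPM in old ones, with 4 of 8 higher in old brains. Of 7 endothelial markers 4 were higher in old brains, with sums of 235 to 248 CPM in young and 269 to 307 CPM in old libraries. Of 8 oligodendrocyte markers 4 (Mbp, Mobp, Cldn11 and Ermn) were higher and 1 (Mog) was lower in old brains, with sums of 6303 to 7381 CPM in young and 6892 to 8495 CPM in old libraries. Of 8 astrocyte markers 1, Gfap, was higher, with sums of 4318 to 5014 CPM in young and 4798 to 5025 CPM in old libraries. No marker of these lists was at 0 in any library. Of all genes tested, 6.20% were called as higher and 4.83% as lower. Values without old replicate 4 are given beside many of the results below.

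Per gene length, S100b was the most abundant of the 9 genes and S100a4 the least. The mean level of S100b was 270 ± 66.3 TPM (transcript units, counts divided by gene length and scaled within each library, SD, n = 5) in young and 243 ± 33.6 TPM (SD, n = 4) in old brains. It was followed by S100a1 with a mean level of 105 ± 21.7 and 108 ± 3.92 TPM, and by S100a16 with 71.1 ± 15.97 and 62.7 ± 5.46 TPM. The order of these 3 genes was the same in all 9 libraries. S100a13 (36.6 ± 11.4 and 33.5 ± 1.83 TPM), S100a10 (28.9 ± 6.73 and 27.5 ± 3.99 TPM), S100a11 (18.8 ± 3.57 and 25.2 ± 6.13 TPM) and S100a6 (12.01 ± 2.09 and 19.0 ± 1.28 TPM) came next in this order, each of the first 3 above the following one in 8 of 9 libraries. Within a group, the ranges of S100a13 and S100a10 overlapped at both ages, and those of S100a10 with S100a11 and of S100a11 with S100a6 overlapped in old brains. In young brains, the ranges of S100a1 and S100a16, of S100a16 and S100a13 and of S100a6 and Anxa2 overlapped, each only through young replicate 3. That library widened the young TPM spread, with 381 TPM of S100b against 214 to 273 TPM in the other young libraries. As CPM per kb of exon, S100b was at 102 ± 10.5 (SD, n = 5) in young and 105 ± 15.5 (SD, n = 4) in old brains, so the lower old mean in TPM was not seen there. Anxa2 was below S100a6 in all 9 libraries, at 7.15 ± 1.09 and 9.01 ± 2.03 TPM, and S100a4 was last, at 0.994 ± 0.395 and 3.55 ± 1.35 TPM. The level of S100b per gene length was 33.1 ± 6.81 times that of Anxa2 (SD, n = 9 libraries).

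**Figure D2:**
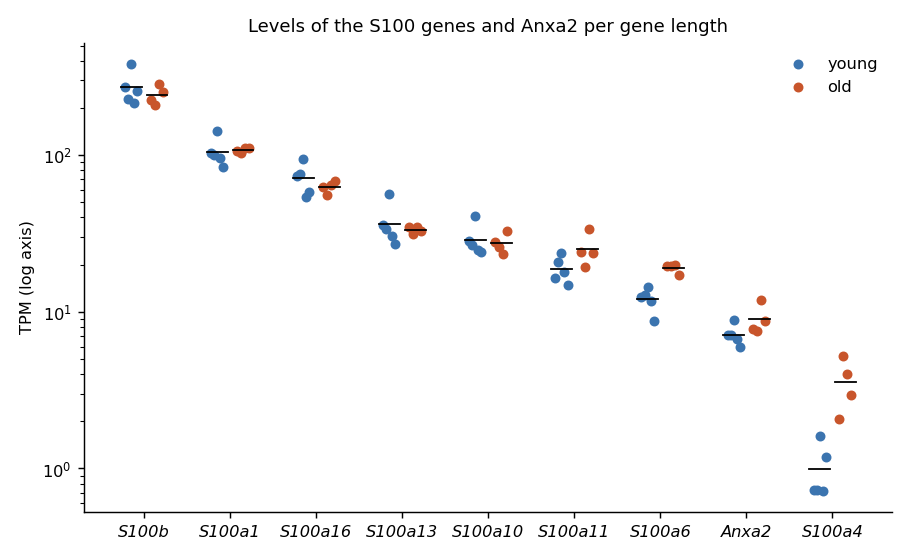
TPM of each gene in each library on a log axis (points, blue for the 5 young and orange for the 4 old brains), with group means as black lines, ordered by the mean over all libraries. S100b is highest and S100a4 lowest in every library, and the ranges of the neighbours S100a13 and S100a10 overlap at both ages.

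Of the 9 genes, 7 lie on mouse chromosome 3 in 2 blocks. S100a1, S100a13, S100a16, S100a4 and S100a6 belong to a block of 12 S100 genes over 184.7 kb (GRCm38 chr3:90511034-90695721, GENCODE M21), which also holds S100a8 and S100a9. S100a11 and S100a10 lie together 2825 kb further along (chr3:93520488-93564643). S100b (chr10:76253853-76261159) and Anxa2 (chr9:69453620-69491795) are elsewhere. Each block held both called and uncalled genes: S100a6 was called and S100a16 was not, and S100a11 was called and the adjacent S100a10 was not. None of these differences between genes was itself tested.

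The largest change among the tested genes was in S100a6 (calcyclin, chr3:90612882-90624181, plus strand), a protein of proliferating and migrating cells that binds the ubiquitin ligase adaptor encoded by Cacybp. Young replicates 1 to 5 had 6.21, 6.85, 5.76, 7.33 and 5.30 CPM of S100a6. Old replicates 1, 3, 4 and 5 had 10.5, 13.1, 12.02 and 9.61 CPM. Every old library was above every young one, which held for 6.50% of all genes tested, while 6.08% had every old library below every young one. The means were 6.29 ± 0.814 CPM (SD, n = 5) and 11.3 ± 1.55 CPM (SD, n = 4), a log2 fold change of 0.83 (SE 0.116, 95% confidence interval 0.59 to 1.08, edgeR, adjusted p = 0.00063). This equals a fitted fold of 1.78 (1.50 to 2.12). With any library left out, the log2 fold change was 0.76 to 0.90 (adjusted p at most 0.00271). Young replicate 4, whose microglia sum was that of old brains, had the highest S100a6 level of the young libraries (7.33 CPM). It was still below the old range of 9.61 to 13.1 CPM. The part of microglia in the S100a6 level was not tested. S100a6 was also the 1 gene of the 8 with an adjusted p under 0.05 on the TPM scale. The ratio of S100a6 to S100b was 0.0458 ± 0.0101 (TPM, SD, n = 5) in young and 0.0794 ± 0.0130 (SD, n = 4) in old brains, with no overlap between the ages.

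The bases just upstream of S100a6 are shown because it changed most of the tested genes. They come from the RefSeq promoter table for GRCm38.p6, up to the annotated start (chr3:90612644-90612881, plus strand, 5′ to 3′), and none of the motifs named here occurred in them, so no letter is in capitals.
S100a6 upstream: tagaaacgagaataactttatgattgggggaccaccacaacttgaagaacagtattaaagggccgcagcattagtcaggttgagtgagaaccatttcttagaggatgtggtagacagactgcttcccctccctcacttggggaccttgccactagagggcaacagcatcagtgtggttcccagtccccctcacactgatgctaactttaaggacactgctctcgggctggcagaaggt

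S100a11 (chr3:93520488-93526287) and Anxa2 were the next in size and had the most similar profile over libraries among all pairs of the 8 tested genes. S100a11 (calgizzarin) is known as a partner of annexin A1 at membranes. It had 3.08, 4.14, 3.57, 4.20 and 3.39 CPM in young replicates 1 to 5 and 4.83, 4.79, 7.65 and 4.98 CPM in old replicates 1, 3, 4 and 5. The groups did not overlap, and old replicate 4 lay far above the other old libraries. The means of S100a11 were 3.67 ± 0.484 CPM (SD, n = 5) and 5.56 ± 1.39 CPM (SD, n = 4), with a log2 fold change of 0.60 (SE 0.162, 95% confidence interval 0.25 to 0.95, edgeR, adjusted p = 0.0296). Without old replicate 4 the log2 fold change of S100a11 was 0.40 (edgeR, adjusted p = 0.0886). Leaving out young replicate 1, 3 or 5 gave log2 fold changes of 0.54, 0.59 and 0.57 (edgeR, adjusted p = 0.0723, 0.0600 and 0.0662). The call for S100a11 thus depended on single libraries, while the direction was the same in each of these fits.

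Anxa2 had 9.76, 10.3, 9.74, 11.5 and 9.87 CPM in young replicates 1 to 5. In old replicates 1, 3, 4 and 5 it had 11.5, 13.7, 19.8 and 13.4 CPM. Old replicate 1 and young replicate 4 met at nearly the same level, 11.45 and 11.48 CPM, and the other 3 old libraries were above all young ones. The mean level of Anxa2 was 10.2 ± 0.733 CPM (SD, n = 5) in young and 14.6 ± 3.60 CPM (SD, n = 4) in old brains, with a log2 fold change of 0.51 (SE 0.131, 95% confidence interval 0.23 to 0.79, edgeR, adjusted p = 0.0230). Without old replicate 4 the log2 fold change of Anxa2 was 0.32 (edgeR, adjusted p = 0.0449). Without young replicate 1, 3 or 5 it was 0.49, 0.49 and 0.50 (edgeR, adjusted p = 0.0539, 0.0525 and 0.0510). The gene Gm16144 on the opposite strand covers 98 exon bases of Anxa2, and the sources used here do not say whether the libraries kept the strand.

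Old replicate 4 had the highest level of S100a11 and of Anxa2, and also the highest sum of the blood, fibroblast, endothelial, astrocyte, oligodendrocyte and choroid plexus lists. Old replicate 1 had the lowest Anxa2 level of the old brains. It also had the second highest blood sum (264 CPM) and the lowest fibroblast sum (158 CPM) of them. Old replicates 1, 3 and 5 lay between 4.79 and 4.98 CPM in S100a11. Their blood sums ran from 129 to 264 CPM and their fibroblast sums from 158 to 221 CPM. The part of these cell types in the difference was not tested.

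**Figure D3:**
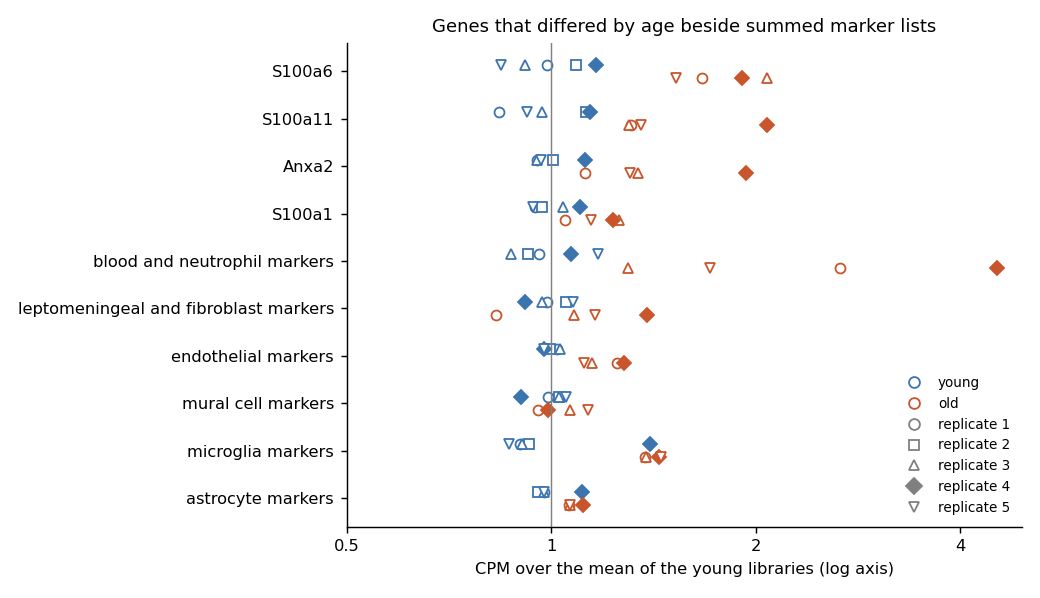
CPM of the 4 genes that passed the test and summed CPM of 6 marker lists, each divided by its mean over the young libraries (log axis), with 1 symbol per library and replicate 4 of each age filled. Old replicate 4 is the rightmost point for S100a11, Anxa2 and the blood, fibroblast, endothelial and astrocyte lists, but not for S100a6 or S100a1, and young replicate 4 lies with the old libraries for microglia markers.

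The upstream bases of S100a11 and Anxa2 are shown together because the levels of these genes ran most closely among the 8 tested genes. Their age differences and their high level in old replicate 4 are part of that closeness. Among all genes compared, the 3 closest to S100a11 (root mean square difference of at most 0.112) were nearer than Anxa2 (0.114). Capitals mark the AP-1 motif TGANTCA (GRCm38.p6, RefSeq, up to the annotated start, S100a11 chr3:93520246-93520487 and Anxa2 chr9:69453433-69453619, both plus strand, 5′ to 3′).
S100a11 upstream: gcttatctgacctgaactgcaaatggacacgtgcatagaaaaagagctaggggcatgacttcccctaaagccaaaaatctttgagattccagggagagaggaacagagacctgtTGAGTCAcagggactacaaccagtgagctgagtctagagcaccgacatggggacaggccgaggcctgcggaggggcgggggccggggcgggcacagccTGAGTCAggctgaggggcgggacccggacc
Anxa2 upstream: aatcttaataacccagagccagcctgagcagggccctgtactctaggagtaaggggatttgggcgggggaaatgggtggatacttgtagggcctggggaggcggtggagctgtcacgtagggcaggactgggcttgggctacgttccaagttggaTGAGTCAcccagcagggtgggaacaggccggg

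The motif TGANTCA was searched on both strands. In the 250 bases before the RefSeq start it occurred 2 times at S100a11, 136 and 38 bases before the start, and 1 time at Anxa2, 95 bases before. It was also found before 1 of the 2 starts of S100a16, a gene whose level did not pass the test. That makes 3 of 9 windows at 8 of the genes, beside 6.75% of 32851 promoter windows of the same length. A match describes the letters only.

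S100a1 (chr3:90511034-90514392, minus strand), which is best known for its effect on calcium handling in muscle and is also made in neurons, changed less. Young replicates 1 to 5 had 26.2, 26.9, 28.8, 30.5 and 26.1 CPM of S100a1, and old replicates 1, 3, 4 and 5 had 29.1, 34.9, 34.2 and 31.7 CPM. Old replicate 1 lay within the young range and the other old libraries above it. The means were 27.7 ± 1.91 CPM (SD, n = 5) and 32.5 ± 2.66 CPM (SD, n = 4), with a log2 fold change of 0.23 (SE 0.066, 95% confidence interval 0.08 to 0.37, edgeR, adjusted p = 0.0419). With single libraries left out the log2 fold change of S100a1 was 0.19 to 0.28, and the adjusted p was over 0.05 in 7 of 9 cases, all but those without young replicate 4 or old replicate 1. Its highest value was 0.114, without old replicate 3, and without old replicate 4 it was 0.110. With upper quartile scaling in place of TMM the log2 fold change of S100a1 was 0.22 (edgeR, adjusted p = 0.0522).

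S100a13 (chr3:90514435-90524581, plus strand), which takes part in the export of FGF1 from cells, lies next to S100a1 on the other strand, with 42 bases between the annotated starts. These bases are shown because both genes start from them. They hold none of the motifs named here (GRCm38.p6, RefSeq, chr3:90514393-90514434, plus strand, 5′ to 3′).
S100a1 to S100a13: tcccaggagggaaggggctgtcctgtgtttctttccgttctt

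S100a13 had 9.39, 9.39, 11.7, 9.93 and 8.57 CPM in young replicates 1 to 5 and 9.86, 10.9, 11.1 and 9.55 CPM in old replicates 1, 3, 4 and 5. The old libraries all lay within the young range. The log2 fold change of S100a13 was 0.08 (SE 0.096, 95% confidence interval -0.12 to 0.29, edgeR, adjusted p = 0.645). After S100a11 and Anxa2, S100a1 and S100a13 had the most similar profiles among the 8 tested genes, with a root mean square difference of centred log2 CPM of 0.12, against 0.11 for the closest pair. The ratio of S100a1 to S100a13 was 2.93 ± 0.255 (TPM, SD, n = 5) in young and 3.23 ± 0.164 (SD, n = 4) in old brains, with ranges that overlapped.

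S100a10 (chr3:93555080-93564643), the partner of annexin A2, was not called. Young replicates 1 to 5 had 12.5, 12.5, 14.4, 13.7 and 13.1 CPM of S100a10, and old replicates 1, 3, 4 and 5 had 13.3, 15.3, 12.6 and 16.3 CPM. Old replicate 4, which had the most Anxa2, had the least S100a10 of the old libraries. The means of S100a10 were 13.3 ± 0.814 CPM (SD, n = 5) and 14.4 ± 1.77 CPM (SD, n = 4), a log2 fold change of 0.12 (SE 0.086, 95% confidence interval -0.07 to 0.30, edgeR, adjusted p = 0.436). Without old replicate 4 the log2 fold change of S100a10 was 0.18 (edgeR, adjusted p = 0.236). The ratio of S100a10 to Anxa2 per gene length was 4.01 ± 0.343 in young brains (TPM, SD, n = 5, 3.69 to 4.55). In old replicates 1, 3, 4 and 5 this ratio was 3.56, 3.44, 1.96 and 3.77, so that old replicate 5 alone reached the young range. The difference of the ratio between ages was not tested.

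S100b (chr10:76253853-76261159), which astrocytes make and secrete, had 149, 131, 166, 145 and 169 CPM in young replicates 1 to 5. Old replicates 1, 3, 4 and 5 had 132, 151, 188 and 155 CPM of S100b. Old replicate 4 was the highest library, and the other old libraries lay within the young range. The log2 fold change of S100b was 0.04 (SE 0.089, 95% confidence interval -0.15 to 0.23, edgeR, adjusted p = 0.812), an interval from 0.902 to 1.18 times the young level. Without old replicate 4 the log2 fold change was -0.06 (edgeR, adjusted p = 0.690). Gfap, another astrocyte gene, was higher in old brains (log2 fold change 1.07, SE 0.243, edgeR, adjusted p = 0.0122). Young replicate 4 had 513 CPM of Gfap, within the old range of 433 to 637 CPM, while the other young libraries had 190 to 220 CPM. Without young replicate 4 the log2 fold change of Gfap was 1.45 (edgeR, adjusted p = 9.99e-07), and with a robust empirical Bayes step its call was lost (edgeR, adjusted p = 0.0911). Whether S100b and Gfap differed in their change was not tested.

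S100a16 (chr3:90537254-90543151), a weak calcium binder made in many tissues, was the least changed of the tested genes. It had 40.0 to 47.4 CPM in young and 39.7 to 46.4 CPM in old libraries. The log2 fold change of S100a16 was 0.01 (SE 0.059, 95% confidence interval -0.12 to 0.14, edgeR, adjusted p = 0.943).

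S100a4 (chr3:90603771-90606045), also called fibroblast-specific protein and known for binding non-muscle myosin IIA, was the rarest of the 9 genes, and the filter on low counts left it out. Its raw counts were 3, 3, 4, 4 and 5 in young replicates 1 to 5. In old replicates 1, 3, 4 and 5 they were 9, 21, 19 and 12. Every old library was above every young one. The means were 0.220 ± 0.0680 CPM (SD, n = 5) and 0.924 ± 0.435 CPM (SD, n = 4), a difference of 0.705 CPM and a ratio of 4.21 (two-sided exact permutation test, p = 0.00794, the smallest that 126 splits can give). With any library left out the difference was 0.520 to 0.854 CPM (exact permutation p of 0.0179 to 0.0286). Since the groups did not overlap, these p values were fixed in advance at the smallest possible. When all 35028 genes with a count were tested, the log2 fold change of S100a4 was 2.03 (SE 0.402, edgeR, adjusted p = 0.000665), and DESeq2 gave 2.08 with no adjusted p. S100a4 shares 302 exon bases with Gm42674 on the same strand, so its count is uncertain, and it rests on 19 young and 61 old reads. Its highest old value was in replicate 3 and not in replicate 4.

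The upstream bases of S100a4 (GRCm38.p6, RefSeq, chr3:90603520-90603769, plus strand, 5′ to 3′) are shown because the ratio of its means was the largest of the 9 genes. Capitals mark the TATA box letters TATAAA.
S100a4 upstream: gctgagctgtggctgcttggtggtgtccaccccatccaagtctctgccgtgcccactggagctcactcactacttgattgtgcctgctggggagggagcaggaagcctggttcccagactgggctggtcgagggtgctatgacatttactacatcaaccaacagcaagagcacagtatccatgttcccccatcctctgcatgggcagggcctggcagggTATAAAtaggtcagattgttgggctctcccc

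TATAAA, searched on both strands, lay 31 bases before the RefSeq start of S100a4. It occurred in 2 of the 9 windows, those of S100a4 and Anxa2 (there beyond the annotated start and so not shown), beside 12.4% of all windows. The GAS element TTCNNNGAA was found in 0 of the 9 windows on either strand, beside 7.02% of all. No match says only that these letters are not in the windows.

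**Figure D4:**
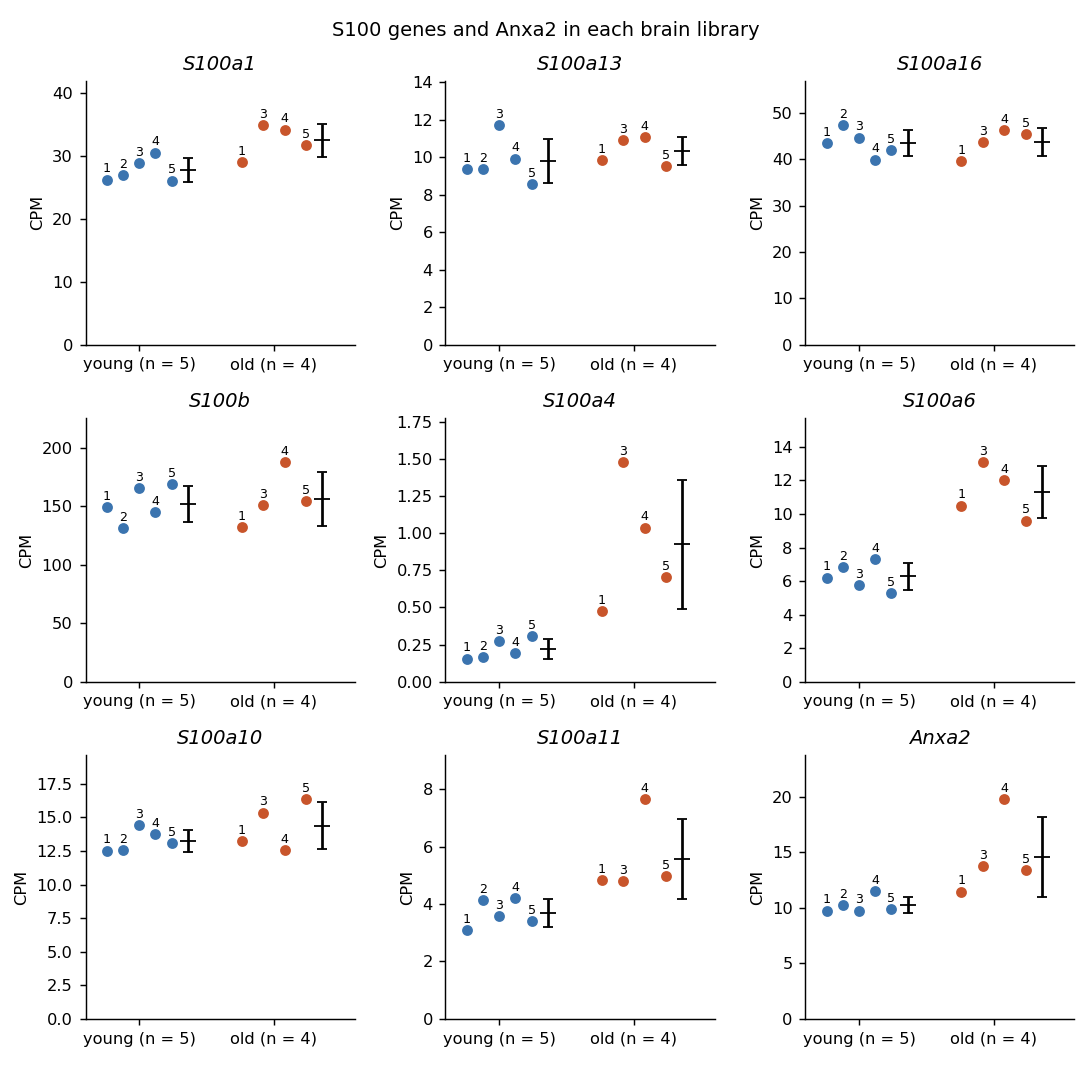
CPM of each gene in each library (points, numbered by replicate), with the mean and SD beside them in black, for 5 young and 4 old brains. S100a4, S100a6 and S100a11 do not overlap between ages, and old replicate 4 is the highest point for S100a11, Anxa2 and S100b.

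Of 9 other S100 genes in the table, 3 had enough counts for a test, and the other 6 had at most 14 counts in any library. Of the 3 tested genes, 2 were called higher and 0 lower, beside 6.20% and 4.83% of all genes tested. S100a8 and S100a9, the neutrophil calprotectin subunits, were called higher in old brains, with most of their counts in old replicate 4. Both passed the filter on low counts only through the old libraries, so their calls are no independent support for an age difference. The S100a8 call was lost in 6 of the 19 alternatives that tested it, among them those without young replicate 1, 2 or 5. That of S100a9 was lost in 1 of 19, the robust empirical Bayes step. S100a8 had 0.10 to 0.62 CPM in young libraries, 1.43, 0.84 and 0.59 CPM in old replicates 1, 3 and 5 and 21.0 CPM in old replicate 4. S100a9 had 0 to 0.55 CPM in young libraries, 1.70, 0.92 and 1.82 CPM in old replicates 1, 3 and 5 and 28.5 CPM in old replicate 4. The log2 fold changes were 3.92 for S100a8 (SE 1.02, edgeR, adjusted p = 0.0249) and 4.56 for S100a9 (SE 1.06, edgeR, adjusted p = 0.0139). Without old replicate 4 they were 1.28 for S100a8 (edgeR, adjusted p = 0.0864) and 2.09 for S100a9 (edgeR, adjusted p = 0.0117), and DESeq2 gave no p for either with all libraries. Old replicate 4 was the library with the neutrophil granule transcripts Ngp, Ltf and Camp, and their part was not tested. S100a5, a gene of olfactory sensory neurons, was not called and had 0 counts in 5 libraries. It was found in young replicate 2 and in old replicates 1, 3 and 5, at 0.70 to 3.16 CPM, and these were also the 4 libraries with the highest sums of 6 olfactory bulb markers (50.7 to 171 CPM, against 23.5 to 32.6 CPM in the others).

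Of 11 other annexin genes, 9 were tested, 2 were higher and 1 was lower in old brains, beside 6.20% and 4.83% of all genes tested. Anxa3, an annexin of microglia and vessel cells, had 7.55 to 10.8 CPM in young and 13.7 to 16.6 CPM in old libraries without overlap, with its highest young value in replicate 4. The log2 fold change of Anxa3 was 0.81 (SE 0.104, edgeR, adjusted p = 0.000376), and 0.80 without old replicate 4. Anxa5, which binds phosphatidylserine, was higher by a log2 fold change of 0.17 (SE 0.049, edgeR, adjusted p = 0.0406). That call was lost without old replicate 4 (0.13, edgeR, adjusted p = 0.118) and in 12 of 21 alternatives in all. Anxa6, which also links membranes and actin, was lower without overlap, at 104 to 115 CPM in young and 86.5 to 101 CPM in old libraries (log2 fold change -0.23, SE 0.047, edgeR, adjusted p = 0.0076). Without old replicate 4 the log2 fold change of Anxa6 was -0.27 (edgeR, adjusted p = 0.0027). Its call was lost in 4 of 21 alternatives, those on the TPM scale. Anxa1, Anxa4, Anxa7, Anxa8, Anxa9 and Anxa11 did not pass the test, and Anxa1, the partner of S100a11, had a log2 fold change of 0.91 with a wide error (SE 0.342, edgeR, adjusted p = 0.104).

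All 17 genes described here as partners or receptors of S100 proteins and annexin A2 were tested, and 2 were higher in old brains. Of all 18492 genes tested, 6.20% were called as higher and 4.83% as lower. AHNAK is a very large scaffold protein that binds the complex of S100a10 and annexin A2 at the cell membrane, and also S100b. Ahnak had 59.5, 57.2, 60.5, 75.6 and 65.9 CPM in young replicates 1 to 5 and 103, 127, 137 and 115 CPM in old replicates 1, 3, 4 and 5. The groups lay far apart, with a log2 fold change of 0.92 (SE 0.086, edgeR, adjusted p = 3.86e-05) that was 0.85 to 0.99 with any library left out. Myh9, the heavy chain of non-muscle myosin IIA and a target of S100a4, was higher by a log2 fold change of 0.30 (SE 0.045, edgeR, adjusted p = 0.00116). It had 136 to 154 CPM in young and 168 to 186 CPM in old libraries. Without old replicate 4 the log2 fold change of Myh9 was 0.26 (edgeR, adjusted p = 0.0036). Its call was lost in 4 of 21 alternatives, those on the TPM scale. By edgeR 0 of the 17 were lower, and DESeq2 called 2 higher and 0 lower. At an unadjusted p under 0.05, 6 were higher and 2 lower, beside 4803 of all 18492 genes in either direction (edgeR). The activator genes Plat and Plau, the receptor genes Ager, Tlr4, Plaur and Plgrkt, and Cacybp did not pass the test. Ager, which encodes the receptor RAGE for extracellular S100 proteins, had 0.522 to 1.17 CPM in young and 0.704 to 0.929 CPM in old libraries.

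**Figure D5:**
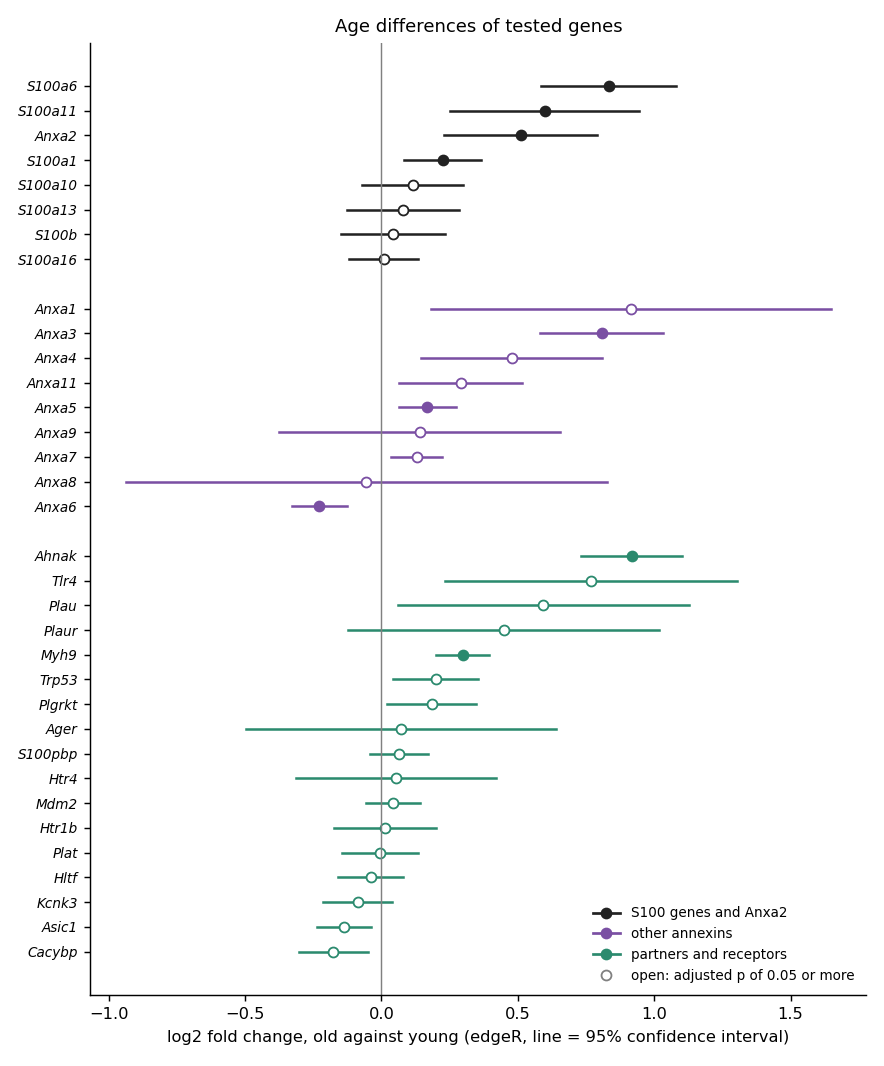
Log2 fold change of old against young brains (points) with 95% confidence intervals (lines) for the tested S100 genes and Anxa2, 9 other annexin genes and 17 partner and receptor genes, ordered within each list. Filled points had an adjusted p under 0.05: S100a6, S100a11, Anxa2 and S100a1 in the first list, Anxa3 and Anxa5 (higher) and Anxa6 (lower) in the second, and Ahnak and Myh9 in the third.

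For each called gene, the 3 genes with the closest profile over the 9 libraries were listed among 14498 genes with a mean log2 CPM of at least 1, by the root mean square difference of log2 CPM after centring each gene. Age is part of the profile, so these genes share the age difference by construction. S100a6 was closest to Apobec3, Paqr5 and Ddx58, with differences of 0.10 to 0.14. S100a11 was closest to Slc1a5, Id1 and Igfbp7 (0.098 to 0.11), and Anxa2 to Mmrn2, Slc1a5 and AI506816 (0.11 each). Slc1a5, a glutamine transporter, stood in the lists of both. S100a1 had the closest neighbours, with Tln1 at 0.043, Dnajc3 at 0.059 and Lamp2 at 0.061.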

How the data were processed

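RNA-seq values of whole brain came from 5 young and 4 old mice. By the study's methods, the authors trimmed the reads, mapped them with STAR (GRCm38) and assigned those that mapped uniquely to exons with featureCounts. They deposited these counts unnormalized. The deposited TPM divide these counts by gene length, and in a further deposited table, a signal, the authors divided the counts of each library by 1 size factor. In each of the 3 tables, 1 further column of per-sample values matched no sample and was not used.

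A filter on low counts (filterByExpr, at least 10 in a library and 15 in total) preceded TMM scaling, and edgeR's quasi-likelihood test (edgeR 4.0.16, R 4.3.3) compared the ages with Benjamini-Hochberg adjustment over all genes kept. Standard errors are the log2 fold change over the root of F, and log2 CPM used a prior count of 2. S100a4 was tested by exact permutation of its CPM. The test was checked on simulated counts. Alternatives were DESeq2 1.42.0, limma 3.58.1 on log2 TPM and on log2 of the authors' table, other scalings and filters, a replicate block and each mouse left out. DESeq2's Wald test is the test of the study. Positions are from GENCODE M21 and upstream bases from RefSeq, which matched 8 of the 9 genes. Libraries of one age differed by more than sampling noise (chi-square per degree of freedom at least 4.05), so each counted as 1 replicate.

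The 9 genes and all lists were chosen with earlier results of these data known. Named are the 9 genes, genes of the family and partner lists with an adjusted p under 0.05 or said not to have passed, marker genes beside a result, and the 3 closest profiles of each called gene. A further gene of the partner list was taken off it and is not reported here, which leaves 17. Anxa1 and Ager were chosen after their values were seen.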

Additional observations from a re-analysis of the deposited data

Results flagged for a closer look

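In the old brains, the S100a11 level of replicate 4 lay apart from the others. It had 7.65 CPM, against 4.79 to 4.98 CPM in the other 3, so that its gap to the nearest old library was 0.915 of the range of the 4 on the log2 scale. This was the 1 case found among 18 groups of libraries examined (9 genes at 2 ages), where chance alone gives about 0.9. Without this library the log2 fold change of S100a11 between ages was 0.40 in place of 0.60 (edgeR, adjusted p = 0.0886 in place of 0.0296).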

How the results depend on the processing

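S100a6 kept its direction and its adjusted p under 0.05 in every alternative run, including the stricter threshold of 0.01 in the unaltered fit. Calls for S100a11, Anxa2 and S100a1 were lost on the TPM scale and in several fits with a library left out, always with the same direction, and that for S100a1 also with upper quartile scaling (0.22, edgeR, adjusted p = 0.0522). On log2(TPM + 1) and log2(TPM + 0.1), the median log2 fold change of all genes moved to -0.14 and -0.16, 594 and 600 genes were called, and 1 of the 8 genes, 1 of the other annexins and 1 of the partners passed on either scale. S100a10, S100a13, S100a16 and S100b, which passed nowhere, turned negative on these scales, at -0.052, -0.080, -0.15 and -0.13 with a pseudocount of 1 and at -0.054, -0.081, -0.16 and -0.13 with 0.1. On these scales limma gave each gene the spread of the trend over all genes and not its own. Without the trend, which was chosen after seeing the data, 465 and 389 genes were called, with 1 of the 8 genes (S100a6), 1 and 0 of the other annexins and 1 of the partners. Relative to the median of all genes with a pseudocount of 1, S100a11 was at 0.54, Anxa2 at 0.43 and S100b at 0.01.

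At an adjusted p under 0.01, 780 genes passed, 270 of them past both thresholds, with 1 of the 8 genes and 0 of the other S100 genes. DESeq2 gave no p for S100a8 and S100a9, and a CPM of at least 1 in at least 4 libraries removed both, so the 0 calls among the other S100 genes there are no test of them. They fell to 0 calls with a robust empirical Bayes step, which was chosen after seeing the data, and to 1 call in the authors' normalized table, where 1 of the 8 genes passed both thresholds. Testing every gene with a count gave 5 calls among other annexins, 4 among partners and a log2 fold change of -0.0011 for S100a16. The cause of the other differences was not tested.

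With single libraries left out, 1 to 5 of the 9 genes were called and 1 to 4 passed both thresholds, where the highest counts include S100a4, which passed the filter without old replicate 1. It passed there only through the old libraries, with 12 to 21 counts against 3 to 5 in young ones, so its call adds no support. The other S100 genes gave 1 to 2 calls, other annexins 2 to 5 and partners 2 to 4, with 4 without young replicate 4. S100b ran from -0.059 to 0.12 and S100a16 from -0.022 to 0.059. The lowest counts, 1 called and 1 past both thresholds, came without young replicate 1, 3 or 5, and without old replicate 4 there were 2 and 1.

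Young and old libraries share replicate numbers. Deviations of same-numbered libraries correlated at 0.17, -0.12, 0.09 and -0.02 for numbers 1, 3, 4 and 5. These values of mixed sign gave no clear pairing by number, but so few cannot exclude one. With the replicate block 1687 genes were called in place of 2039, the same 4 of the 8 genes passed, and S100b turned to -0.014. S100a11 rests on 52 to 140 counts and S100a4 on 3 to 21 counts per library, which limits their precision.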
